A study of Mus musculus with 4 samples.

Results

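The CatSper subunits were taken as the 10 genes Catsper1, Catsper2, Catsper3, Catsper4, Catsperb, Catsperd, Catsperg1, Catsperg2, Catsperz and Efcab9, matched by symbol in the feature lists, and all 10 of them were found among 55357 genes. The data were droplet snRNA-seq (10x Genomics, 3′ tags) of whole testes, with 2 WT and 2 Dhx37-/- libraries, 4 in all. The study asked what follows in the testis when Sertoli cells, the somatic support cells of the tubule, lose Dhx37, which encodes a DEAH-box RNA helicase. Dhx37-/- stands for Dhx37 flox/flox mice with AMH-Cre, in which a Cre driven in Sertoli cells removes the floxed exon, and WT mice were littermates. The labels give an age of 8 weeks and the methods P60. The CatSper genes belong to germ cells, in which this Cre is not driven. Whether mice were pooled, or which libraries came from the same litter, was not given in the sources used here.

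CatSper is the calcium channel of the sperm tail. It sits in the membrane of the principal piece, opens when the inside of the cell turns alkaline, and lets in the calcium that drives the whip-like, hyperactivated stroke needed for fertilization. CATSPER1, CATSPER2, CATSPER3 and CATSPER4 line the pore. CATSPERB, CATSPERD and the CATSPERG proteins are auxiliary subunits with large domains outside the cell, and CATSPERZ and EFCAB9, a calcium-binding EF-hand protein, form an intracellular pair that organizes and tunes the channel. Mice that lack a pore subunit make sperm, but those sperm cannot hyperactivate and the males are sterile.

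The members lie on 8 different chromosomes. Catsperg1 and Catsperg2 are neighbouring paralogs on chromosome 7 with 12 genes between them, so reads of one may have been given to the other, and their values are uncertain to that extent. Catsper1 and Catsperz are both on chromosome 19, with 103 genes between them. Catsper2 overlaps Pdia3 and Catsperd overlaps Gm33461 in the annotation, and it was not stated whether counting used strand. Promoter sequence was at hand for 8 of the 10 members from RefSeq (GRCm38.p6), Catsper1 and Catsperg2 being the ones not matched. The sources name mm39 and GRCm38 (mm10) for these files, so the coordinates below belong to the promoter sequences alone. The 250 bases before each listed start were searched on both strands for the X-box bound by RFX factors, for the cAMP-response element bound by CREM (TGACGTCA) and its shorter core (TGACG, which lies within it), and for the MYB motif (TAACNG). MYB and RFX factors are known regulators of genes switched on in meiotic prophase and of genes for cilia and flagella, and CREM of genes switched on in round spermatids. Stretches are shown for members that led the spermatocyte steps and for members that led the round spermatid steps, in the orientation of the gene, with the motif in capitals. Catsperz, whose mean was highest in late spermatocytes, held none of these motifs. It is not shown, as its window had no long enough stretch outside annotated exons. Catsperd and Catsperg1 have 2 listed starts each, and the MYB motif of Catsperd and the X-box of Catsperg1 each lie in 1 of the windows, that of Catsperd holding no TGACG and the other window of Catsperg1 none of the motifs:

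Catsper2, chr2:121413819-121413848 (-), MYB motif: cggaacagctggTAACTGccgattggcggg

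Catsperb, chr12:101404643-101404672 (+), overlapping MYB motifs on both strands: agttaggtagactgctaggCAGTTAACTGt

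Catsperd, chr17:56628003-56628032 (+), MYB motif: tctgcgtagaccTAACCGggcttttgtccg

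Catsperg1, chr7:29214034-29214063 (-), X-box: gggaaaattcgcGTTACCATGGAAACgcgc

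Catsper3, chr13:55784506-55784567 (+), no motif: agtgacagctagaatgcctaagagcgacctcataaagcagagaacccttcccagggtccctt

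Catsper4, chr4:134227384-134227483 (-), no motif: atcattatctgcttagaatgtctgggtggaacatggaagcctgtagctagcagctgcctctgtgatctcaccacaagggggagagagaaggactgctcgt

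Efcab9, chr11:32527580-32527679 (-), no motif: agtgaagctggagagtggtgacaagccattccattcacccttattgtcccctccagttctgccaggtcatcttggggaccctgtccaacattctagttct

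The X-box of Catsperg1 was a match shared with few other genes, as 36 of 32851 promoters (0.11%) held one. The MYB motif of Catsper2, Catsperb and Catsperd stood in 19.8% of promoters, and the core TGACG, found in Catsper2 and Catsperd, in 17.8%. The full cAMP-response element, present in 1.55% of promoters, was in none of the 8 members' windows. A match is a description of letters and not a bound site.

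The libraries held 51797891 to 75611263 UMIs, and 37034 nuclei were kept, 8295 to 10022 per library, with a median of 3302 to 4158 UMIs. Pairs of libraries shared 19 to 29 barcodes, at most 0.293% of the smaller library. Doublet calls covered 4.18% to 4.54% of nuclei and were not removed. Each nucleus was placed by marker lists that held no CatSper gene into 8 germ cell steps, from spermatogonia to condensing spermatids, or into somatic nuclei, and 13.8% to 18.6% of nuclei stayed ungated. The gate was checked on its own markers, and 9 of 15 spermatogonial, 12 of 16 early prophase, 6 of 15 pachytene, 9 of 15 late spermatocyte, 9 of 15 early round and 13 of 15 condensing markers were highest where their name says. The late round to early elongating list did not mark its own step in that way, since 2 of its 15 markers were highest there and 11 in condensing spermatids. Of the somatic lists, 11 of 13 Sertoli cell, 10 of 10 Leydig cell, 10 of 10 macrophage and 11 of 12 peritubular markers were highest in somatic nuclei, but 4 of 10 endothelial and 3 of 7 T cell markers. The smallest steps were spermatogonia, with 24 to 172 nuclei per library, and early prophase, with 50 to 390, and each spermatid step held 977 to 2671. The spermatogonial gate also took in nuclei of the peritubular myoid and fibroblast cluster, 15 of 62 and 1 of 24 in WT and 26 of 70 and 2 of 172 in Dhx37-/-, and their part in the values of that step was not tested. Over 9147 genes in all kept nuclei, the standard deviation between the WT libraries was 0.452 (log2) and between the Dhx37-/- libraries 0.246. Dhx37 itself gave 246 to 478 UMIs in the kept nuclei of a library and 3 to 16 in Sertoli-gated nuclei. Counts per gene do not show where its 3′ tags lie against the deleted exon, so it does not serve as a check of the labels here.

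Levels are given as CPM, the UMIs of a gene scaled to a total of 1e6 UMIs in a step of a library, always in the order WT replicate 1, WT replicate 2, Dhx37-/- replicate 1, Dhx37-/- replicate 2. CPM of one gene in different steps can be compared, but a 3′ count has no length scale on which different genes could be ranked. Steps and genotypes were compared by edgeR's quasi-likelihood test on UMIs summed per library and step, two-sided, with p-values adjusted over all genes tested and a threshold of 0.05. Differences are on the log2 scale, with standard errors. The labels call the libraries biological replicates without saying from how many animals. In tests between genotypes, p-values measure the spread between these libraries. Tests between steps, and of a step change between genotypes, held the library as a block. Their p-values rest on the spread that remains once each library's own level is removed.

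The members fell into 2 patterns of timing. Catsper1, Catsper3, Catsper4 and Efcab9 were highest in early round spermatids in every library, and Catsper2, Catsperb, Catsperd, Catsperg1 and Catsperg2 rose between early prophase and pachytene-gated spermatocytes. The highest step of the auxiliary subunits was the pachytene gate in both Dhx37-/- libraries, but it varied in WT. In WT replicate 2, Catsperb, Catsperg1 and Catsperg2 were highest in early round spermatids I and Catsperd in late spermatocytes. In WT replicate 1, Catsperg1 was highest in late spermatocytes. Catsperz rose by pachytene as well, but its mean over the 4 libraries stayed between 53% and 100% of its highest step from early prophase to condensing spermatids. In WT its early prophase level was lower, at 61.1 CPM of a highest 165 CPM and 89.2 CPM of a highest 296 CPM.

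**Figure D1:**
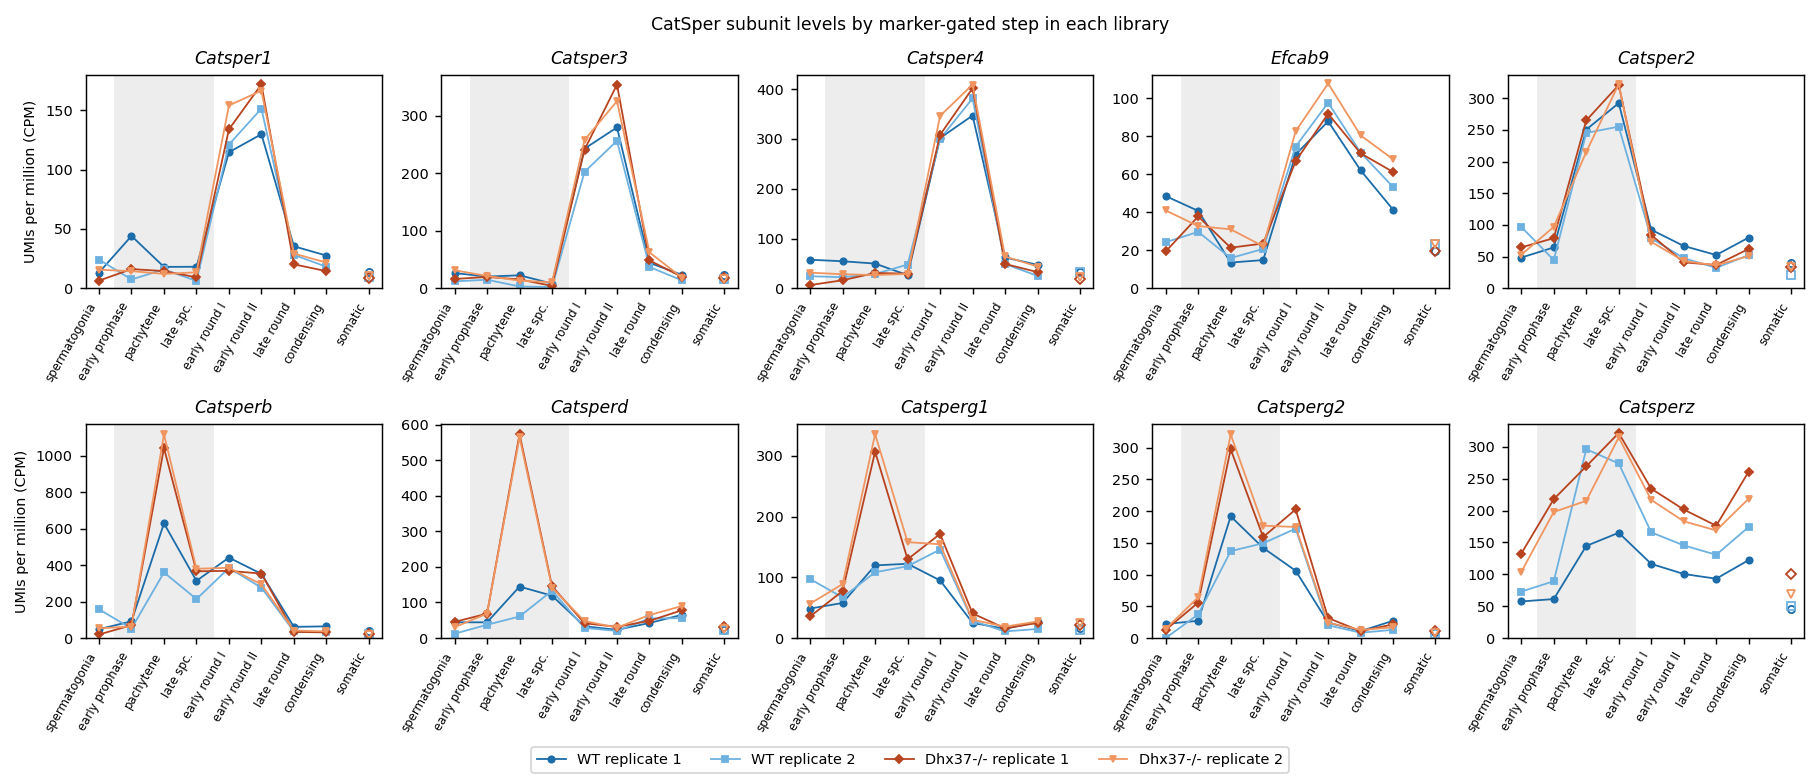
CPM (y axis, linear) of each CatSper gene in 8 marker-gated germ cell steps (x axis, in order of development) and in somatic nuclei (open symbols). Each line is 1 library, and grey marks the spermatocyte steps. Catsper1, Catsper3, Catsper4 and Efcab9 peak in early round spermatids II in all 4 libraries, and Catsper2 in late spermatocytes in all 4.

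Among the pore subunits, Catsper3, Catsper1 and Catsper4 came on at the entry into round spermatids. Catsper3 stood at 8.26, 2.08, 4.21 and 10.6 CPM in late spermatocytes, at 243, 202, 241 and 257 CPM in early round spermatids I, and at 279, 256, 354 and 325 CPM in early round spermatids II. Its late spermatocyte values rest on 1 to 11 UMIs per library and lie below its somatic level of 16.6 to 22.8 CPM, so transcripts of Catsper3 in that step were not detectable above background at this depth. The rise into early round spermatids I was 5.81 ± 0.25 (adjusted p = 3.89e-22).

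Catsper1, the pore subunit after which the channel was named, showed the same order. It stood at 18.2, 6.23, 9.26 and 13.5 CPM in late spermatocytes, on 3 to 14 UMIs, and at 115, 121, 134 and 154 CPM in early round spermatids I, a rise of 4.08 ± 0.25 (adjusted p = 3.95e-18). Catsper4 went from 26.4, 47.7, 29.5 and 28.9 CPM to 302, 300.0, 308 and 346 CPM over the same boundary, a rise of 3.91 ± 0.23 (adjusted p = 9.48e-19). All 4 libraries rose for each of these genes, and no library of the later step overlapped one of the earlier.

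Efcab9, the calcium-binding partner of CATSPERZ, joined them with a smaller step. Its level was 14.9, 20.8, 23.6 and 22.1 CPM in late spermatocytes, near the 19.7 to 23.4 CPM of somatic nuclei, and 70.4, 74.6, 66.9 and 82.7 CPM in early round spermatids I. The rise was 2.45 ± 0.22 (adjusted p = 3.39e-13). After its highest step it fell less than Catsper1, Catsper3 and Catsper4. Its mean was 74% of its highest step in late round to early elongating spermatids and 58% in condensing spermatids, against 15% to 18% and 6% to 13% for those genes.

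Catsper2 was the exception among the pore subunits. It stood at 64.5, 44.6, 79.2 and 97.0 CPM in early prophase, at 251, 245, 265 and 215 CPM in the pachytene gate and at 292, 255, 321 and 323 CPM in late spermatocytes. It then dropped to 92.5, 79.0, 84.3 and 73.5 CPM in early round spermatids I, the step in which its partners appeared. The rise into the pachytene gate was 1.78 ± 0.22 (adjusted p = 8.09e-09) and the drop after late spermatocytes was -1.24 ± 0.19 (adjusted p = 1.68e-07). Its highest step was late spermatocytes in 4 of 4 libraries.

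The auxiliary subunits rose with Catsper2. Catsperb, whose product forms part of the extracellular canopy, went from 91.7, 52.0, 70.2 and 63.0 CPM in early prophase to 630, 360, 1043 and 1119 CPM in the pachytene gate, a rise of 3.77 ± 0.32 (adjusted p = 8.28e-13). Catsperb stayed on through early round spermatids II, at 352, 276, 354 and 294 CPM, and dropped to 61.3, 36.3, 33.6 and 41.1 CPM in the next step (-2.77 ± 0.27, adjusted p = 4.61e-12).

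Catsperd, needed for a stable channel complex, went from 44.1, 37.2, 68.4 and 68.7 CPM in early prophase to 145, 60.5, 573 and 564 CPM in the pachytene gate (2.76 ± 0.34, adjusted p = 9.49e-09). The libraries of the pachytene gate were far apart for this gene, and the nuclei behind that gap are described below. Without the cluster of Dhx37-/- nuclei described there, the rise of Catsperd was 0.52 (adjusted p = 0.0558), while those of the other 5 members that rose passed. In late spermatocytes the 4 libraries were close together, at 119, 133, 146 and 142 CPM. Catsperd rose again late. Its level in early round spermatids II was 23.0, 20.0, 31.5 and 29.3 CPM, near the 22.18 to 29.96 CPM of somatic nuclei. In late round to early elongating spermatids it was 42.3, 55.2, 48.3 and 64.5 CPM, a rise of 1.18 ± 0.28 (adjusted p = 2.63e-04). Barcodes with under 500 UMIs, which hold free RNA from outside nuclei, were higher still for Catsperd, at 81.82 to 125.8 CPM. The part of free RNA in this late rise was not tested.

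The paralogs Catsperg1 and Catsperg2 moved together. Catsperg1 went from 57.7, 66.9, 77.4 and 88.8 CPM in early prophase to 120, 108, 307 and 336 CPM in the pachytene gate (1.81 ± 0.26, adjusted p = 1.88e-07). Catsperg2 went from 27.2, 37.2, 55.8 and 64.3 CPM to 192, 137, 298 and 321 CPM (2.46 ± 0.26, adjusted p = 1.81e-10). Both persisted into early round spermatids I, at 94.9 to 171 CPM and 106 to 203 CPM, and then dropped within the round spermatids, Catsperg1 to 24.9 to 40.4 CPM (-2.02 ± 0.21) and Catsperg2 to 20.1 to 31.5 CPM (-2.54 ± 0.21, adjusted p = 8.22e-11 and 1e-13).

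Catsperz was measured in every step, and WT replicate 1 was the lowest library in each of them. From 61.1, 89.2, 218 and 198 CPM in early prophase it went to 145, 296, 269 and 215 CPM in the pachytene gate (0.80 ± 0.18, adjusted p = 4.04e-04), with no overlap between the steps in WT and a partial overlap in Dhx37-/-. Without the cluster of Dhx37-/- nuclei described below, Catsperz was at 143, 296, 371 and 415 CPM in that gate. It was 116, 166, 234 and 217 CPM in early round spermatids I and 122, 174, 261 and 219 CPM in condensing spermatids.

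**Figure D2:**
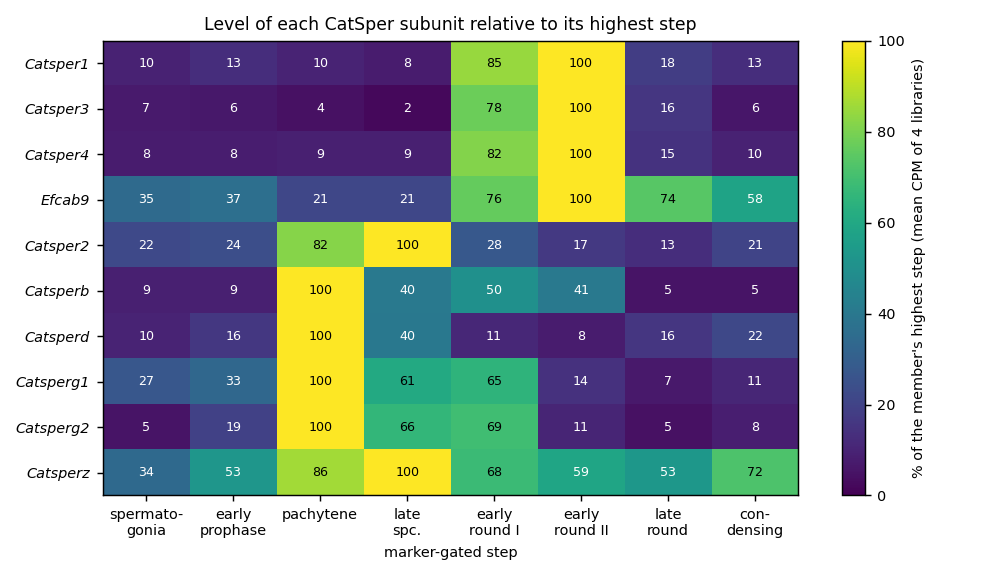
Mean CPM over the 4 libraries in each step (x axis) as a percent of the gene's highest step (color and printed number), with members in rows. Catsper1, Catsper3 and Catsper4 are at 2% to 13% of their highest step before round spermatids, while Catsper2, Catsperb, Catsperd, Catsperg1 and Catsperg2 reach 82% to 100% in the pachytene gate. These means pool the genotypes. In WT alone Catsperd was at 102.5 CPM in that gate and 125.9 CPM in late spermatocytes, and Catsperg1 at 114 and 120.3 CPM. The WT means of Catsperb and Catsperg2 were highest in the gate.

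Counted over the members, 2 of 10 rose from spermatogonia to early prophase (Catsperg2 and Catsperz), where 8.11% of all 23674 genes tested rose. Both calls were lost without Dhx37-/- replicate 2, in a comparison that rests on few nuclei. From early prophase to the pachytene gate 6 of 10 rose, against 23.9% of all genes, and the remaining 4, Catsper1, Catsper3, Catsper4 and Efcab9, did not pass in either direction. From the pachytene gate to late spermatocytes 5 of 10 fell (Catsper3, Catsperb, Catsperd, Catsperg1 and Catsperg2), against 15.4% of all genes. This last count was 0 with the WT libraries alone and 1 without Dhx37-/- replicate 1. Those fits hold fewer libraries, and the share of all genes called in them is not given here. The changed count is therefore not a result about the members alone. The nuclei of the pachytene gate are described below. Catsper3 had 3.2 to 22.6 CPM in that gate, against 16.6 to 22.8 CPM in somatic nuclei. Catsperd and Catsperg1 turned direction without the cluster of Dhx37-/- nuclei (0.73 and 0.048) and in WT alone (0.31 and 0.13).

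At the entry into round spermatids 7 of 10 members rose and 2 fell, Catsper2 and Catsperd, where 36.5% of all genes rose and 27.6% fell. The scaling bears on this boundary. The TMM factors moved the median of all genes from -0.29, with library totals alone, to 0.31. With library totals Catsper1, Catsper3, Catsper4 and Efcab9 still rose and Catsper2 and Catsperd still fell. Catsperb (0.32, adjusted p = 0.231), Catsperg1 (0.11, adjusted p = 0.670) and Catsperg2 (0.07, adjusted p = 0.766) no longer passed, and Catsperz fell by 0.55 (adjusted p = 1.26e-03). With clusters in place of the gate Catsperb turned direction (-0.16). The genes higher and lower numbered 8648 and 6528 with TMM, and 6498 and 9120 with library totals. The same split went from 1919 and 1666 to 1129 and 2179 into early prophase, from 5668 and 4208 to 4764 and 5312 into the pachytene gate, and from 3464 and 5182 to 7196 and 3634 into condensing spermatids. The members called at the first 2 of these were as many, 2 and 6.

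Within early round spermatids, from I to II, 4 members rose (Catsper1, Catsper3, Catsper4 and Efcab9, by 0.43 to 0.56) and 3 fell (Catsper2, Catsperg1 and Catsperg2), against 27.1% and 27.2% of all genes. These rises were small, and with library totals those of Catsper1 and Catsper4 did not pass. Without Dhx37-/- replicate 1, 3 of these 7 calls held, those of Catsper1, Catsper2, Catsper3 and Catsper4 being lost (Catsper3 0.49, adjusted p = 0.0506), and without WT replicate 2 that of Catsper1 and without Dhx37-/- replicate 2 that of Catsper2 did not pass. The share of all genes called in those fits is not given here, so the lost calls are not a result about the members alone. Into late round to early elongating spermatids 1 member rose (Catsperd) and 6 fell, against 29.3% and 29.9% of all genes. Catsper1, Catsper3, Catsper4 and Catsperb fell most among the members, with log2 differences of -2.35 to -2.77, and Catsperg1 fell by 0.90 and Catsperg2 by 1.09. Efcab9 did not pass at this boundary, but edgeR called it lower with library totals (-0.44, adjusted p = 8.34e-03). The same held with the study's filter alone (-0.41, adjusted p = 0.0222) and without the cluster of Dhx37-/- nuclei (-0.32, adjusted p = 0.0437). Into condensing spermatids Catsper1, Catsper3, Catsper4 and Efcab9 fell further, 4 of 10 against 21.9% of all genes. With library totals this last boundary differed, as Catsper2, Catsperg1, Catsperg2 and Catsperz rose by 0.44 to 0.87 and Efcab9 did not pass (adjusted p = 0.0536).

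Onset was also read per library as the first step that reached 25% of the gene's highest level. Catsper3 and Catsper4 began in early round spermatids I in 4 of 4 libraries, and Catsper1 in 3 of 4, with early prophase in WT replicate 1. Catsperg2 began in the pachytene gate in 4 of 4 libraries and Catsperb in 3 of 4. Catsper2 and Catsperd varied from spermatogonia to the pachytene gate between libraries, and Catsperg1, Catsperz and Efcab9 already reached the mark in spermatogonia or early prophase. In total 7 members began before round spermatids in every library and 2 began there in every library. With the mark at 10% of the highest level these counts were 7 and 1, and at 50% they were 6 and 3, and Catsper1 then joined Catsper3 and Catsper4 in 4 of 4 libraries. Spermatogonial values were thin, with 0 to 13 UMIs of each member in WT replicate 2 and its 24 nuclei, and the gate was mixed as given above, so an onset there is not firm. With the somatic level subtracted, 6 members began before round spermatids in every library. The member that left this count was Efcab9, which then began in early round spermatids I in WT replicate 2 and Dhx37-/- replicate 2.

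Across the 32 sums of 8 steps and 4 libraries, Catsper1, Catsper3 and Catsper4 were correlated at r = 0.94 to 0.96 with each other, and Efcab9 with them at 0.74 to 0.82. Catsperg1 and Catsperg2 were at 0.87, and Catsper2 with the auxiliary subunits at 0.65 to 0.78. Catsperb and Catsperd were at 0.37, below Catsperb and Catsper4 at 0.42. Catsper2 and Efcab9 were at -0.77. The sums of a library share its depth and free RNA, and these values are a description. No member stood for the whole set, as r with the mean profile of the members ranged from 0.14 for Efcab9 to 0.88 for Catsperb. Among 18296 genes, a count that includes the members though they were not ranked, that mean profile was most like those of Spag17, a protein of the axoneme's central apparatus (r = 0.96), and of Gm13942, Cfap65, Iqank1 and Ccdc178 (r = 0.94 for each), over the same 32 sums.

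The share of nuclei with at least 1 UMI followed the levels. After thinning each nucleus to 1000 UMIs, which left out 123 to 325 nuclei per library, Catsper4 was found in 29.8% to 31.5% of early round spermatids II, with exact 95% binomial intervals between 27.9% and 33.7%, against 1.56% to 2.83% of somatic nuclei, which should lack it. Catsper3 was found in 22.2% to 27.9% against 0.353% to 3.19%, Catsper1 in 13.1% to 15.8% against 0.561% to 2.26%, and Efcab9 in 8.55% to 10.6% against 1.06% to 2.81%. The share for Catsper2 in late spermatocytes was 18.7% to 25.9% against 1.06% to 4.26%, and that for Catsperz 22.9% to 28.1% against 4.24% to 12.2%. In the pachytene gate Catsperb reached 18.3% to 50.2% against 1.77% to 3.99%, Catsperg1 12.5% to 26.2% against 1.77% to 2.47%, and Catsperg2 12.9% to 25.9% against 0.353% to 1.33%. Catsperd reached 3.23% to 27.1% there against 1.41% to 3.22%. In 3 of 4 libraries its interval lay above the somatic interval of the same library, and in WT replicate 2, with 3 of 93 nuclei (3.23%, interval 0.670% to 9.14%), the intervals overlapped. Unthinned shares were higher, for example 69.7% to 77.9% for Catsper4. The intervals of all 10 members then lay above the somatic interval in every library in their highest step. For Catsperd that step was late spermatocytes when unthinned, and not the pachytene gate. Somatic nuclei were at a median of 3133 to 5487 UMIs and early round spermatids II at 3664 to 4387. Intervals cover counting error only. With 2 libraries against 2 an exact two-sided permutation test cannot go below p = 0.33, so it could call no difference in shares between genotypes, and no other test of shares was run. Mean thinned shares in the pachytene gate were 7.08% in WT and 25.6% in Dhx37-/- for Catsperd and 29.8% and 48.1% for Catsperb.

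**Figure D3:**
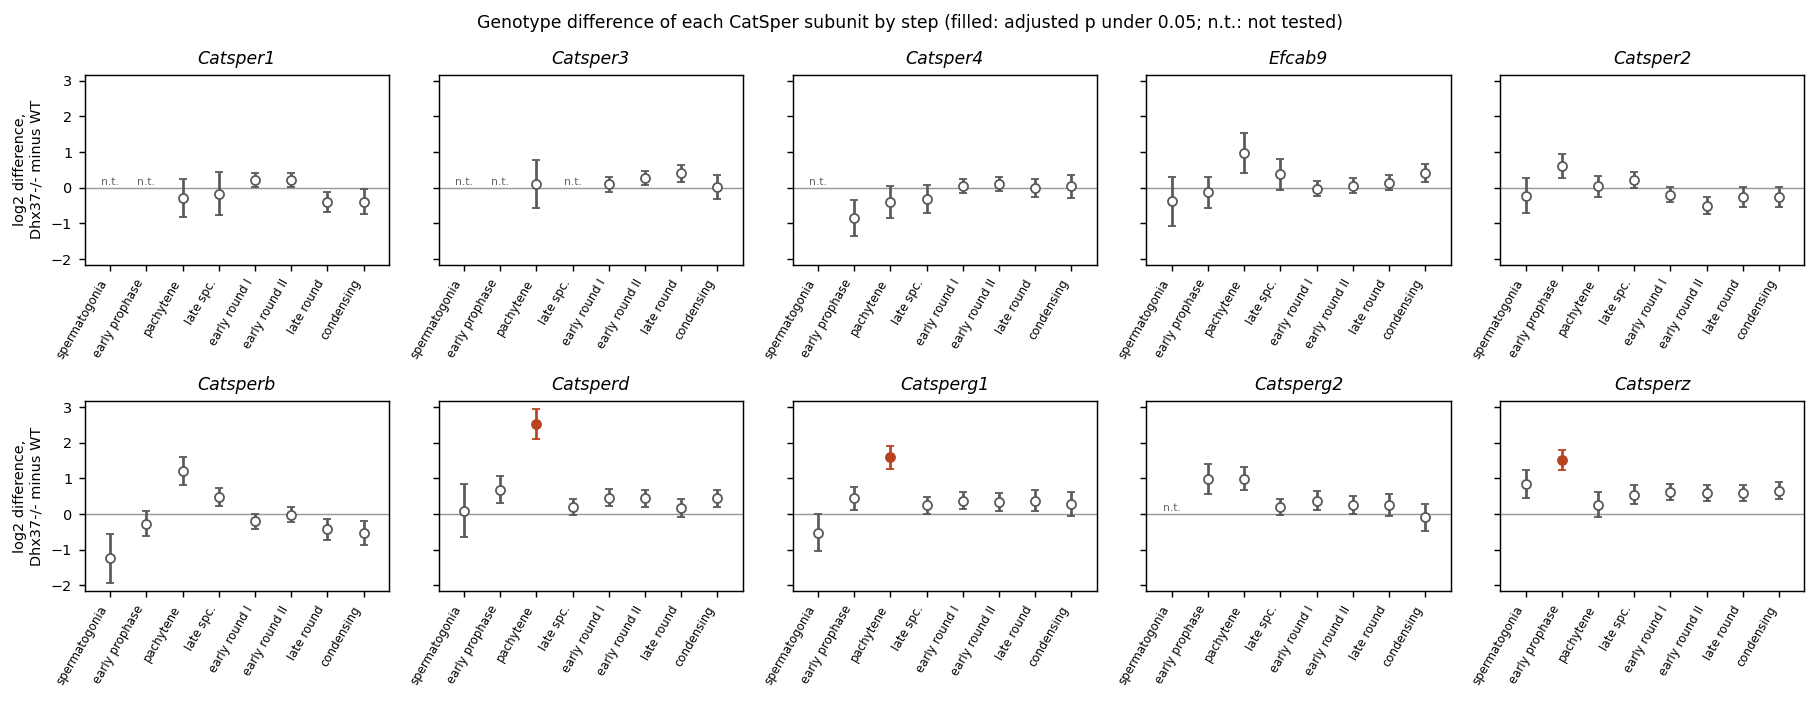
Log2 difference between Dhx37-/- and WT (y axis) of each CatSper gene in each step (x axis), with bars of 1 standard error, by edgeR on sums of 2 libraries per genotype. Filled points pass an adjusted p of 0.05, and n.t. marks genes left out by the filter on low counts. Catsperd and Catsperg1 in the pachytene gate and Catsperz in early prophase are filled.

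Between genotypes 3 calls passed this test, in the early prophase and pachytene gates. In early prophase 1 of 8 members tested was higher in Dhx37-/-, against 2.33% of all genes, and Catsper1 and Catsper3 did not pass the filter on low counts. It was Catsperz, at 61.1 and 89.2 CPM in WT and 218 and 198 CPM in Dhx37-/-, a difference of 1.52 ± 0.28 (adjusted p = 0.0170). This call was lost with the replicate number as a block (adjusted p = 0.0688), without Dhx37-/- replicate 1 (adjusted p = 0.142) and without Dhx37-/- replicate 2 (adjusted p = 0.0687). Nuclei of this gate held a median of 2234 and 2487 UMIs in WT and of 3246 and 3731 in Dhx37-/-, and the part of that depth in the difference was not tested.

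In the pachytene gate 2 of 10 members were higher in Dhx37-/-, against 7.58% of all genes. Catsperd was at 145 and 60.5 CPM in WT and at 573 and 564 CPM in Dhx37-/- (2.52 ± 0.41, adjusted p = 8.06e-03). Catsperg1 was at 120 and 108 CPM in WT and at 307 and 336 CPM in Dhx37-/- (1.59 ± 0.31, adjusted p = 0.0141), a call lost without Dhx37-/- replicate 2 (1.48, adjusted p = 0.101). For both genes the Dhx37-/- libraries lay above both WT libraries. Catsperb (1.21 ± 0.40, adjusted p = 0.0644) and Catsperg2 (0.99 ± 0.32, adjusted p = 0.0594) did not pass, though DESeq2 called Catsperb (1.21, adjusted p = 0.0237), as did edgeR without WT replicate 1 (1.79, adjusted p = 0.0298). Catsper2 was at 0.05 ± 0.30 (adjusted p = 0.936).

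The pachytene gate held different nuclei in the genotypes. A cluster of 338 nuclei with a median of 8794 UMIs, 98.82% of them from Dhx37-/-, gave 72 of 189 and 239 of 327 of the pachytene-gated nuclei of the Dhx37-/- libraries, and 3 of 129 and 0 of 94 of the WT libraries. A cluster named late spermatocytes, with the late marker Wee2 among its leading 10 genes, held 76.7% and 88.3% of pachytene-gated nuclei in WT, against 43.9% and 22.3% in Dhx37-/-. The median number of UMIs per nucleus in the gate was 3191 and 3185 in WT and 5349 and 7461 in Dhx37-/-. Within the first cluster Catsperd stood at 889 and 619 CPM in the Dhx37-/- libraries, Catsperb at 1419 and 1192 CPM, Catsperg1 at 406 and 363 CPM and Catsperg2 at 362 and 339 CPM. The 3 nuclei of WT replicate 1 in that cluster gave 25 UMIs of Catsperd (1032 CPM) and 32 of Catsperb (1321 CPM), and the 1 nucleus of WT replicate 2 gave 0 and 1.

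Without that cluster Catsperd in the pachytene gate was at 93.1, 60.5, 115 and 83.5 CPM, and the difference was 0.33 ± 0.36 (adjusted p = 0.858). Catsperg1 then differed by 0.55 ± 0.29 (adjusted p = 0.737), and of 8069 genes tested 0 passed by edgeR, 560 having an unadjusted p under 0.05. In the late spermatocyte cluster Catsperd was at 81.1 and 77.1 CPM in WT and at 114 and 109 CPM in Dhx37-/- (0.46 ± 0.22, adjusted p = 0.557). Fewer nuclei of that cluster in WT and a different level per nucleus cannot be told apart here, because the WT libraries gave 4 nuclei of that cluster in all.

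**Figure D4:**
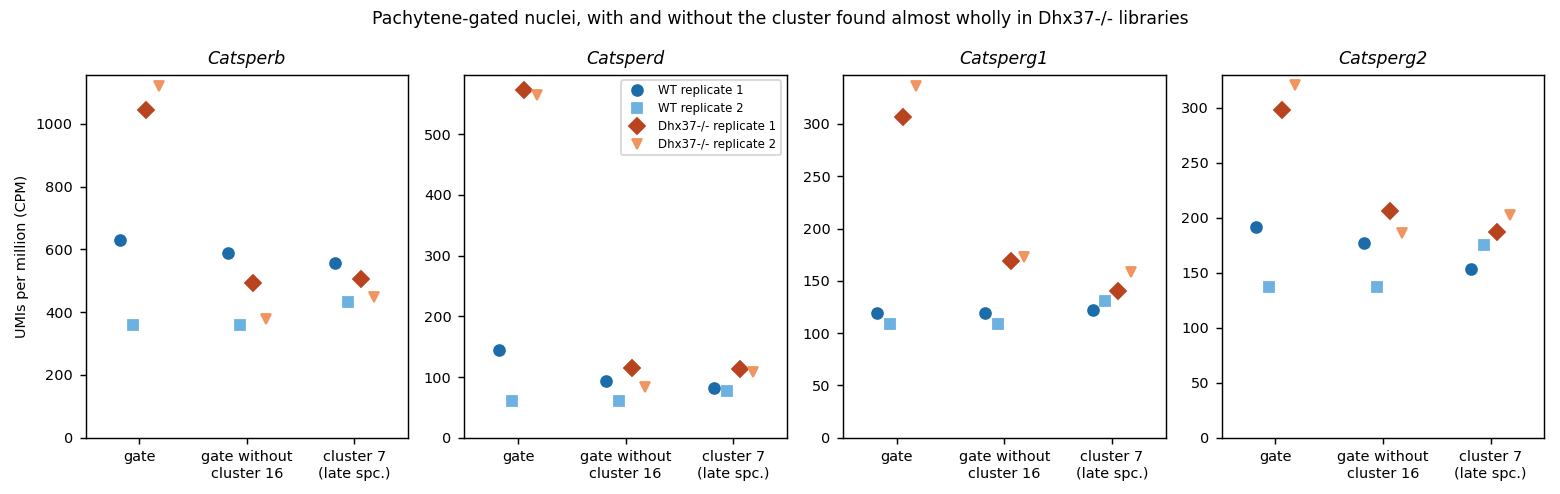
CPM (y axis, linear, from 0) of 4 auxiliary subunits in all pachytene-gated nuclei, in those nuclei without the cluster that is 98.82% Dhx37-/- (cluster 16), and in the late spermatocyte cluster (cluster 7). Each point is 1 library. For Catsperd the Dhx37-/- libraries are at 573 and 564 CPM in the gate, and at 115 and 83.5 CPM without that cluster.

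The change from early prophase to the pachytene gate was compared between genotypes, because that gate had the highest mean level over the members and the 4 libraries (213.7 CPM). In WT alone the mean was 142.8 CPM there and 164.4 CPM in early round spermatids I, so the choice of gate followed from the libraries then tested, and the p-values below are not independent of it. The change was more positive in Dhx37-/- for 2 of 9 members, against 6.91% of all genes, Catsperb (1.38 ± 0.43, adjusted p = 0.0287) and Catsperd (1.74 ± 0.52, adjusted p = 0.0215). The call of Catsperd was lost with any of the 4 libraries left out, and that of Catsperb without WT replicate 1 or either Dhx37-/- library. Without the cluster of Dhx37-/- nuclei these values were 0.0049 and -0.51, and neither passed. With library totals the split of more and less positive genes went from 802 and 337 to 721 and 562, and Catsperz was then called too (-1.28, adjusted p = 0.0168). DESeq2 called 0 of 9, with 3 at an unadjusted p under 0.05, a count given without the share of all genes.

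In spermatogonia 6 members passed the filter and 0 were called, in late spermatocytes 9 and 0, and in each of the 4 spermatid steps 10 and 0. The share of all genes called was 0% in spermatogonia, late spermatocytes, early round spermatids I, late round to early elongating spermatids and condensing spermatids, and 0.00973% in early round spermatids II. At an unadjusted p under 0.05 edgeR gave 0 members in spermatogonia, 0 in late spermatocytes and 1, Catsperz, in each spermatid step, and DESeq2 called 0 members in all of these. The share of all genes at that unadjusted threshold is not given here, so these counts are not a result about the members. In early round spermatids II the pore subunits Catsper1 (0.21 ± 0.20), Catsper3 (0.28 ± 0.20) and Catsper4 (0.10 ± 0.20) differed by less than 1.5 standard errors, with both Dhx37-/- libraries above both WT libraries for each. Catsper2 in that step was at 66.9 and 47.6 CPM in WT and at 41.0 and 43.1 CPM in Dhx37-/- (-0.50 ± 0.25, adjusted p = 0.728).

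Counted by libraries alone, the lower Dhx37-/- library exceeded the higher WT library for 1 of 6 members tested in spermatogonia (18.7% of all genes), 5 of 8 in early prophase (28.5%), 5 of 10 in the pachytene gate (27.7%) and 7 of 9 in late spermatocytes (20.7%). The same held for 6 of 10 in early round spermatids I (24% of all genes), 6 of 10 in II (23.3%), 3 of 10 in late round to early elongating spermatids (24.2%), 3 of 10 in condensing spermatids (24.6%) and 4 of 10 in all kept nuclei (33.8%). The Dhx37-/- pair was wholly below WT for 1 member in the pachytene gate (33% of all genes) and 1 in early round spermatids II (15%), and for 0 in each other step and in all kept nuclei, against 12.8% to 25.5% of all genes. These are descriptions without a test.

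The counts of 0 calls depend on the WT libraries, which were far apart. Without WT replicate 2, calls appeared for Catsperz, at 0.93 in late spermatocytes and 0.85 to 0.96 in the 4 spermatid steps. In early round spermatids I they appeared for Catsperg1 (0.67) and Catsperg2 (0.72), and in II for Catsper2 (-0.72). Catsperb was called lower in the last 2 steps (-0.75 and -0.96). In those fits the lone WT library is taken to vary as the Dhx37-/- pair did. Many genes outside the set were called in them too, so these calls are not a result about the members. Without WT replicate 1, no member was called in these steps.

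**Figure D5:**
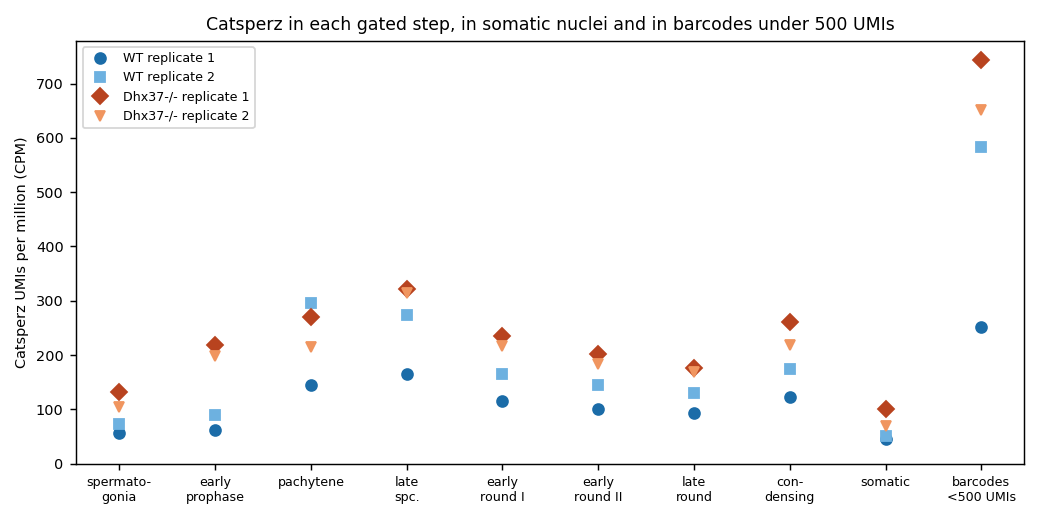
Catsperz CPM (y axis, linear, from 0) in 8 germ cell steps, somatic nuclei and barcodes with under 500 UMIs (x axis), with 1 point per library. WT replicate 1 is the lowest library in all of these places, and barcodes under 500 UMIs lie at 252 to 744 CPM, above every step of the same library.

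Catsperz was also high outside the kept nuclei. Barcodes with under 500 UMIs hold free RNA, from outside nuclei, but were not shown to lack nuclei of low RNA. In them Catsperz was at 252 and 584 CPM in WT and at 744 and 651 CPM in Dhx37-/-. In somatic nuclei it was at 46.0 and 50.5 CPM and at 101 and 68.8 CPM. The ratio of Dhx37-/- to WT means was 1.67 in those barcodes and 1.76 in somatic nuclei, and it ran from 1.45 to 1.62 between late spermatocytes and condensing spermatids. In early prophase it was 2.77, and in the pachytene gate, where the genotypes overlapped, 1.10. That overlap was absent without the cluster of Dhx37-/- nuclei. Catsperz in the gate was then at 143 and 296 CPM in WT and at 371 and 415 CPM in Dhx37-/-. By edgeR this difference was 0.83 ± 0.33 (adjusted p = 0.676). The part of free RNA in the early prophase difference was not tested. Efcab9 was high in barcodes with under 500 UMIs as well, at 106 and 205 CPM in WT and at 175 and 204 CPM in Dhx37-/-, above its highest step in the same library, and the part of free RNA in its late spermatid levels was not tested.

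In all kept nuclei, where fewer nuclei of a step and less RNA per nucleus cannot be told apart, 0 of 10 members were called, as were 0% of 30032 genes, with 1 member (Catsperd) at an unadjusted p under 0.05 and 0 members called by DESeq2. The count at an unadjusted p again stands without the share of all genes. Catsperd was at 39.7 and 38.9 CPM in WT and at 69.7 and 78.7 CPM in Dhx37-/- (0.83 ± 0.23, adjusted p = 0.303), and it passed without WT replicate 1 (0.88, adjusted p = 0.0141). Catsperz was at 104 and 154 CPM in WT and at 211 and 182 CPM in Dhx37-/- (0.51 ± 0.24, adjusted p = 0.355), and it passed without WT replicate 2 (0.73, adjusted p = 0.0474). The pore subunits were close, with Catsper3 at 139 and 132 CPM in WT and 117 and 148 CPM in Dhx37-/- (-0.12 ± 0.23). In the barcodes not kept, both Dhx37-/- libraries were above both WT libraries for 3 of 10 members, against 25.2% of genes, and below both for 2 of 10, against 27.3%. Both counts were near those shares.

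Other proteins of the CatSper complex and its partners were counted beside the members, 7 of 8 listed genes being present. Catspere1, a further auxiliary subunit, averaged 16.2 CPM in early prophase, 358 in the pachytene gate, 352 in late spermatocytes and 50.7 in early round spermatids I. Catspere2 (570 CPM), C2cd6, which encodes the C2-domain subunit of the complex (452 CPM), and Slco6c1, a transporter-like member (274 CPM), were also high in the pachytene gate, against 155, 132 and 43.5 CPM in early prophase. Their levels went from 442, 523 and 187 CPM in late spermatocytes to 261, 458 and 190 CPM in early round spermatids I. Tmem249, a transmembrane subunit, averaged 13.1 CPM in the pachytene gate and 327 CPM in early round spermatids II, and Tmem262 29.8 and 112 CPM. Trim69 was the earliest of the list, at 138 CPM in early prophase and 31.2 CPM in early round spermatids II. Of the 7, 4 rose and 1 fell into the pachytene gate, against 23.9% and 17.8% of all genes, with a median of 1.96 against 0.12 for all genes. Into early round spermatids I 4 rose and 1 fell, against 36.5% and 27.6% of all genes, with a median of 0.46 against 0.31. These counts were made with TMM factors and not with library totals. Between genotypes edgeR called 0 of the 7 genes in each step. Catspere1 and Catspere2 are paralogs, and their split of reads is uncertain.

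Of 22 listed genes for sperm ion transport and signalling, 13 rose and 3 fell into the pachytene gate, where 23.9% of all genes rose and 17.8% fell, and 13 rose and 6 fell into early round spermatids I, where 36.5% rose and 27.6% fell. Of 20 flagellar genes 15 rose and 1 fell into the pachytene gate, and 16 rose and 0 fell into early round spermatids I. Both lists were counted with TMM factors and not with library totals, which changed the split of all genes at these boundaries. Between genotypes the pachytene gate gave 1 higher and 3 lower of 19 in the first list, where 7.58% of all genes were higher and 6.03% lower in Dhx37-/-, with Kcnu1, the sperm potassium channel, at -1.40 ± 0.36 (adjusted p = 0.0280), Hvcn1, the proton channel, at -2.15 ± 0.60 (adjusted p = 0.0358), Slc26a3 at -2.68 and Slc9b1 at 1.10. Of the 20 flagellar genes Armc2 alone was called there (-1.03 ± 0.31, adjusted p = 0.0439). The nuclei compared there are the unlike ones described above. In early prophase the flagellar genes Ropn1l (1.41 ± 0.24, adjusted p = 0.0137) and Tekt1 (1.39 ± 0.35, adjusted p = 0.0471) were higher in Dhx37-/-, 2 of 16 tested against 2.33% of all genes, and in the other 6 steps and in all kept nuclei 0 genes of these lists were called.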

How the data were processed

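Whole-testis nuclei were measured in 4 libraries. The authors made reads with bcl2fastq, aligned and counted them with Cell Ranger (7.2.0 per the file headers, an earlier release per the methods) and deposited raw UMI counts per gene and barcode, with no filter or normalization. The labels name GRCm38, mm10 and Seurat 3.1.1 and the methods mm39. Counting of introns was not given in the sources used here.

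Barcodes were called as nuclei by written-out versions of Cell Ranger's steps (10000 simulations, adjusted p under 0.01) and kept where genes numbered 500 to 5000, UMIs were 500 or more and mitochondrial UMIs did not exceed 25%. Marker lists were scored on the pooled UMIs of each nucleus and its 30 nearest neighbours (2000 variable genes, 20 PCs), leaving out CatSper and related genes. The best list named the step. Early round spermatids were I where a spermatocyte score exceeded the late round score and otherwise II. Score limits were set after seeing the data. Cluster checks used Leiden at resolution 1.0.

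UMI counts were summed per library and step, with at least 20 nuclei, and tested in edgeR 4.0.16 under R 4.3.3 (TMM, filterByExpr, quasi-likelihood F-test, Benjamini-Hochberg). Genotype fits used no covariate. Step fits and the interaction held the library as a block. DESeq2 1.42.0 was an alternative. The edgeR script was tested on simulated data.

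Clustering ran in scanpy 1.11.5 with leidenalg 0.10.2, and sums and plots in Python 3.11.15 with scipy 1.17.1, pandas 2.3.3, numpy 2.4.6 and matplotlib 3.10.9. All 10 members were named in every comparison, and genes of the related lists when called between genotypes or in the complex list with at least 20 UMIs. Members, lists and rules were chosen with earlier results of these data known.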

Additional observations from a re-analysis of the deposited data

Results flagged for a closer look

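The rise from early prophase to the pachytene gate differed between genotypes, by the interaction test in edgeR, for Catsperb (Dhx37-/- minus WT 1.38, log2) and Catsperd (1.74). In WT the rise of Catsperd was from 44.1 and 37.2 CPM to 145 and 60.5 CPM, and in Dhx37-/- from 68.4 and 68.7 CPM to 573 and 564 CPM. DESeq2 called neither (adjusted p = 0.168 and 0.116). Catsperd was lost with any of the 4 libraries left out, and Catsperb without WT replicate 1 or either Dhx37-/- library. The gate was chosen by a mean over these same libraries. Without the cluster that is 98.82% Dhx37-/- the values were 0.0049 and -0.51.

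Outside the kept nuclei, in barcodes that no comparison of steps used, both Dhx37-/- libraries were above both WT libraries for Catsperd (ratio of means 2.05), Catsperg1 (1.69) and Catsperg2 (1.42), and below both for Catsper1 (0.62) and Catsper4 (0.68). That is 3 and 2 of 10 members, against 25.2% and 27.3% of 30032 genes. Both counts are near those shares, so they are not a result particular to the members. Catsperd was there at 83.1, 81.3, 152 and 185 CPM. Barcodes not kept include free RNA, nuclei outside the limits on genes and UMIs, and called nuclei with over 5000 genes, of which WT libraries had 13 and 15 and Dhx37-/- libraries 204 and 302. Barcodes with under 500 UMIs leave out the nuclei with over 5000 genes. In them the ratios were 1.45 for Catsperd, 1.24 for Catsperg1, 1.07 for Catsperg2, 0.69 for Catsper1 and 0.74 for Catsper4. The libraries of the genotypes overlapped there for Catsperg1 and Catsperg2.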

How the results depend on the processing

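Each library left out in turn changed the number of members called between genotypes to 0 to 1 in early prophase, 1 to 3 in the pachytene gate, 0 to 1 in late spermatocytes, 0 to 3 in early round spermatids I, 0 to 2 in II, in late round to early elongating and in condensing spermatids, and 0 to 1 in all kept nuclei. The counts between steps became 0 to 2 into early prophase, 1 to 5 into late spermatocytes and 3 to 7 from early round I to II, and the interaction count 0 to 1. Deviations of same-numbered libraries correlated at -0.352 to 0.0872, so the numbers were not treated as pairs. With the replicate block early prophase gave 0 members, as it did with the numbers crossed, a pairing chosen after seeing the data that gave 4 in the pachytene gate. The block changed no other count of members. For the pachytene gate, no filter on low counts and no upper limit on genes gave 4 each, and leaving out the cluster of Dhx37-/- nuclei, also chosen after seeing the data, gave 0. Without that cluster the interaction gave 0, as with DESeq2. Into early prophase no library block gave 1 member, WT libraries alone 0 and Dhx37-/- libraries alone 6. Into late spermatocytes WT alone gave 0, and without that cluster there were 3, a fall of Catsper3 and rises of Catsper2 and Catsperd. From early round I to II, no library block and WT alone gave 3 each. Library totals, added later, gave 7 into condensing spermatids. Reversed values were those of Catsperd (0.31 in WT alone, 0.73 without that cluster) and Catsperg1 (0.13 and 0.048) into late spermatocytes, Catsperb into early round I with clusters in place of the gate (-0.16), and the Catsperd interaction without that cluster (-0.51). The causes were not tested. The share of all genes called also moved with the setting and is not given beside these counts of members. A changed count is therefore not a result about the members alone. DESeq2 called fewer genes than edgeR between genotypes in early prophase (117 against 383) and in the pachytene gate (843 against 1554). The study's filter alone was not run for spermatogonia, where WT replicate 2 had under 20 nuclei, nor clusters for spermatogonia and the pachytene gate. Spermatogonia rest on 24 to 172 nuclei per library and early prophase on 50 to 390, and condensing spermatids have a median of 2125 to 2650 UMIs per nucleus, which limits what these steps can show.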
